A study of Mus musculus with 6 samples.

Results

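The genes described here carry 2 forms of programmed cell death in mouse macrophages. The apoptosis genes are those of caspases 6, 8 and 9 (Casp6, Casp8, Casp9), the apoptosome scaffold Apaf1 and the death receptor Fas. The necroptosis genes are Ripk1, Ripk3 and Mlkl. All of these genes were taken by gene symbol from the deposited mRNA table, and transcripts of a symbol were summed. All 8 symbols were found, as 24 of the 50687 transcripts and 8 of the 21912 symbols of that table, and all 8 gene identifiers carry the same symbol in the Ensembl name table used here. The values are FPKM, that is fragments per length of transcript and per mapped fragment, in 6 libraries, 3 labelled control and 3 labelled M. The series is described as macrophages given oxidised low-density lipoprotein (ox-LDL), the lipoprotein whose uptake makes foam cells. Reading M as the group given ox-LDL is an inference, since the letter is not explained in the labels and the protocol names ox-LDL for all 6 libraries alike. Strain, macrophage source, dose and time are unstated in the labels. Separate cultures are not mentioned either, so the p-values speak only to the spread among these libraries, which may be technical.

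Apoptosis can start at the cell surface or at mitochondria. Death receptors such as Fas bind the adaptor FADD, which brings caspase-8 molecules together so that they activate one another. Cytochrome c released from mitochondria makes APAF1 assemble into the apoptosome, which activates caspase-9. Both initiator caspases cut executioner caspases, the group to which caspase-6 belongs. Where caspase-8 is inhibited, RIPK1 can bind RIPK3, which phosphorylates MLKL, and MLKL then breaks the plasma membrane; this death is called necroptosis. Macrophages use both forms, and dying lipid-laden macrophages are a known source of the necrotic core of atherosclerotic plaques.

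The 2 genes that passed the test were Fas and Ripk3, and their promoters are shown for that reason. They are RefSeq sequences of build GRCm38.p6, running from 250 bases before to 50 bases after the gene's start, written 5′ to 3′ on the gene's strand. Capitals mark every match to TGANTCA, the core of AP-1 sites, and to CACGTG, an E-box.
Fas (chr19:34290409-34290708, plus strand): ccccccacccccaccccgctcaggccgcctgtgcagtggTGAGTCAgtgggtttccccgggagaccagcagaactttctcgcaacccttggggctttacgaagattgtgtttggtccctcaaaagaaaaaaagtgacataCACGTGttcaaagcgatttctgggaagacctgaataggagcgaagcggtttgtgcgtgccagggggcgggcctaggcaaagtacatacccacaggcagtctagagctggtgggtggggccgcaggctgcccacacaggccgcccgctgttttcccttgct
Ripk3 (chr14:55788808-55789107, minus strand): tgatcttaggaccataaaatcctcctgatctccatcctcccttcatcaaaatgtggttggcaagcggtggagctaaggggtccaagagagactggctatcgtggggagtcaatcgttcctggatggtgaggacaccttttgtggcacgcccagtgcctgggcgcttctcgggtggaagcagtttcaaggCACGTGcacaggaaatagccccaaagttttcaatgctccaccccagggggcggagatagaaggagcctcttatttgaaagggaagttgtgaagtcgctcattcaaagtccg
RefSeq gave 9 promoters for the 8 genes, Ripk1 having 2. The letters CACGTG were in the promoters of Fas and Ripk3 and in none of the other 7, and in 7.15% of all 32851 promoters of the same length. They began 110 bases before the start of Fas and 61 bases before that of Ripk3, as CACGTG reads the same on both strands. TGANTCA was in 1 of the 9, that of Fas, beginning 211 bases before the start, and in 7.81% of all promoters. Its place did not overlap that of the E-box. The GC box GGGCGG was in 7 of the 9 and in 35.7% of all. TGANNNNGC was in 6 of the 9 and in 41.3% of all. It is a loose form of the core of antioxidant response elements, with the fourth base left free. All letters were searched on both strands, and a match describes the sequence only.

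The libraries were alike in their totals, with 375467 to 390581 summed FPKM, and Pearson's r over tested genes was 0.990 to 0.993 within groups and 0.961 to 0.968 between them. The files give no read counts, so depth in reads is not known; steps among low values put relative depth between 0.878 and 1.03 of that of control 1, a rough figure. Of 12 macrophage markers, Lyz2 reached 4401 to 6203 FPKM. Means over all libraries were 499 FPKM for Csf1r, 441 for Cd14, 330 for Cd68 and 103 for Spi1. They were 75.1 for Itgam, 56.0 for Adgre1 and 40.5 for Fcgr1. Cd163 was listed at 0. Mertk and C1qa were near 0, with means over all libraries of 0.128 and 0.0302 FPKM, and Mrc1 was at 1.10. In the test described below 5 of 9 tested markers were called higher in M and 0 lower, against 21.2% and 21.9% of all tested genes. The summed markers were at 5848 to 6268 FPKM in control and 7578 to 7866 in M. Most of that sum and of its rise was Lyz2, with means of 4610 and 6069 FPKM. Of the other marker lists, those of neutrophils, B cells and fibroblasts summed to at most 0.930 FPKM in any library, and the 4 epithelial markers were listed at 0 in all. The 6 T and NK cell markers in the table summed to 2.22 to 2.69 FPKM in control and 3.65 to 3.83 in M, mostly Lck, with Cd3e, Cd3d, Cd8a and Ncr1 listed at 0. The 4 plasmacytoid dendritic cell markers, among which Ly6d was listed at 0, summed to 33.8 to 38.2 in control and 28.9 to 30.5 in M, mostly Tcf4. The 5 endothelial markers, among which Cldn5 was listed at 0, summed to 1.10 to 1.57 in control and 0.952 to 1.45 in M. The part of these shifts in the results below was not tested, and in bulk RNA fewer cells of a type and less RNA per cell cannot be told apart.

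Ranked by their mean over all 6 libraries in FPKM, which is a level per length, the genes fell into an upper and a lower set of 4. Ripk3 was highest with a mean of 29.9 FPKM (27.6 to 32.9 over the libraries), then Casp8 with 26.3 (24.6 to 27.6), Ripk1 with 21.8 (19.8 to 23.8) and Apaf1 with 17.7 (15.5 to 20.2). Ripk1 and Apaf1 overlapped in range. The range of Ripk3 did not overlap that of Casp8, nor that of Casp8 the range of Ripk1. Below a 2.43-fold step came Casp9 with 7.29 FPKM (5.56 to 11.9), Mlkl with 5.54 (4.41 to 6.14), Casp6 with 5.05 (3.80 to 6.12) and Fas with 4.25 (2.15 to 6.69). Each of these 4 overlapped the next, so their order was not resolved by the spread between libraries. All 8 passed the filter of a mean of at least 1 FPKM. The necroptosis kinases thus stood in the upper set and their executor Mlkl in the lower, with Ripk3 at 5.56 ± 0.731 times the FPKM of Mlkl in control and 5.32 ± 0.342 times in M (SD, n = 3).

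**Figure D1:**
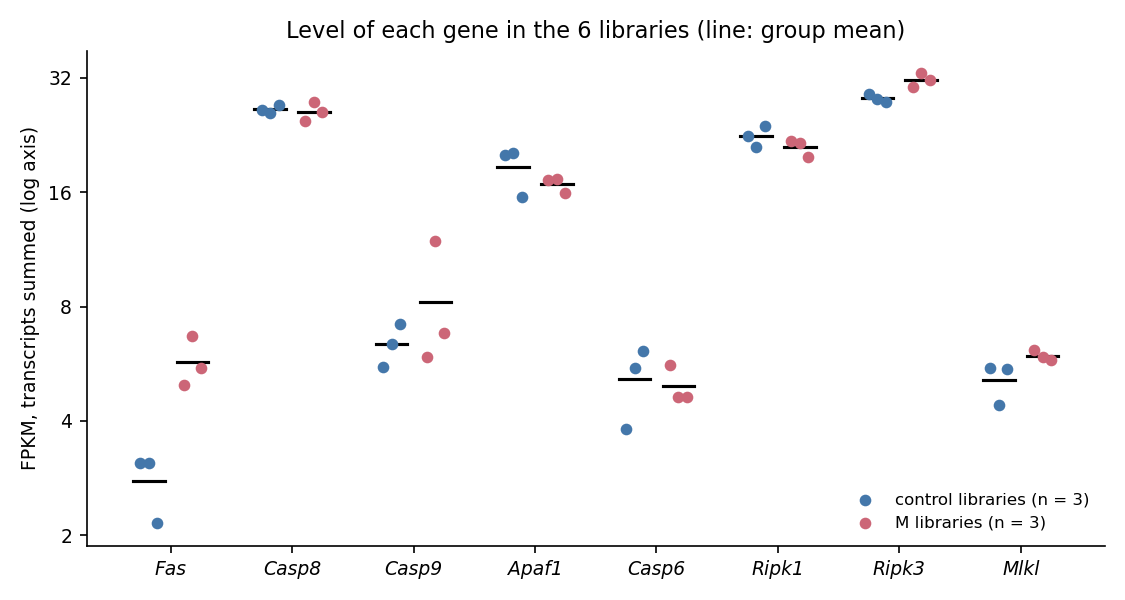
FPKM of the 8 genes in each of the 6 libraries on a log axis, points for libraries and lines for group means. The 3 M libraries lie above the 3 control libraries for Fas, Ripk3 and Mlkl, and the groups overlap for the other 5.

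The question of the comparison was which of these genes differ between control and M macrophages. Fas was about 2-fold higher in M and Ripk3 slightly higher, while no change was called for the 3 caspases, Apaf1, Ripk1 or Mlkl. Values were tested as log2(FPKM + 1) with limma over all 10390 genes that passed the filter, as a two-sided test with p-values adjusted over all of them by the Benjamini-Hochberg method, and a gene was called at an adjusted p under 0.05. Fold changes below are M minus control on that scale, on which low genes appear to change less than they do. Of the 8 genes, 2 were called, both higher and 0 lower, against 43.1% called among all tested genes, 21.2% higher and 21.9% lower. Groups did not overlap in 3 of the 8, and in 55.7% of all tested genes. The share called was thus not above that of all genes. The median log2 fold change of the 8 was 0.07, where that of all tested genes was -0.00568, and their median absolute value was 0.14, where that of all was 0.16.

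Fas encodes the receptor for Fas ligand and starts the surface route to apoptosis. It was at 3.10, 3.10 and 2.15 FPKM in control 1 to 3 and at 4.98, 6.69 and 5.50 in M 1 to 3. Every M library was above every control library. The means were 2.78 ± 0.546 and 5.73 ± 0.875 FPKM (SD, n = 3), a ratio of 2.06. The log2 fold change was 0.83 ± 0.133 SE (95% interval 0.52 to 1.14, limma adjusted p = 0.00184), and 4.01% of all tested genes had a larger absolute value. Without any 1 library the log2 fold change stayed between 0.71 and 0.91, and the adjusted p between 0.00336 and 0.00854. The first of its 2 transcripts, ENSMUST00000025691, carried the rise, its means being 2.25 ± 0.484 and 5.12 ± 0.924 FPKM (log2 fold change 0.92 ± 0.171 SE, adjusted p = 0.0218 over all 19726 transcripts tested, of which 15.8% were called). The other, ENSMUST00000112472, was at 0.536 ± 0.130 and 0.603 ± 0.0881 FPKM with overlapping groups (adjusted p = 0.790). Its share of Fas FPKM was therefore lower in M, 7.88% to 12.7%, than in control, 15.2% to 22.1%. The transcript call was lost under the replicate block (adjusted p = 0.0704), without control 2 (0.0573) or control 3 (0.0523) and without M 2 (0.0661) or M 3 (0.0664).

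Casp8, the initiator caspase that Fas engages and the brake on necroptosis, was steady as a sum. Its values were 26.3, 25.9 and 27.1 FPKM in control and 24.6, 27.6 and 26.0 in M. The M values spanned those of control. The log2 fold change was -0.02 ± 0.0498 SE, with a 95% interval of -0.14 to 0.09 (limma adjusted p = 0.751).

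Beneath that steady sum, 2 of the 4 Casp8 transcripts traded places between libraries. ENSMUST00000165549 was at 13.9 FPKM in control 1, 0.310 in control 2 and 13.6 in control 3, and at 0.961, 1.42 and 1.18 in M 1 to 3. It thus made up 52.8% and 50.3% of Casp8 FPKM in control 1 and 3, but 1.19% in control 2 and 3.90% to 5.15% in M. ENSMUST00000027189 mirrored it, at 10.8, 23.5 and 11.6 FPKM in control and 20.8, 21.9 and 22.0 in M. Control 2 was therefore like the M libraries in this split while its Casp8 sum was that of the other controls. With all libraries neither transcript was called, the log2 fold changes being -1.60 ± 1.01 SE (adjusted p = 0.374) and 0.55 ± 0.291 (0.291). Without control 2 both were, at -2.76 (adjusted p = 0.00263) and 0.89 (0.00380). A choice of libraries made by this split is no test of it. The 2 minor transcripts held at most 10.9% of Casp8 FPKM each, and ENSMUST00000191201 was listed at 0 in control 2 alone. How the authors' software shared reads among transcripts is unstated, and its part in the split was not tested.

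**Figure D2:**
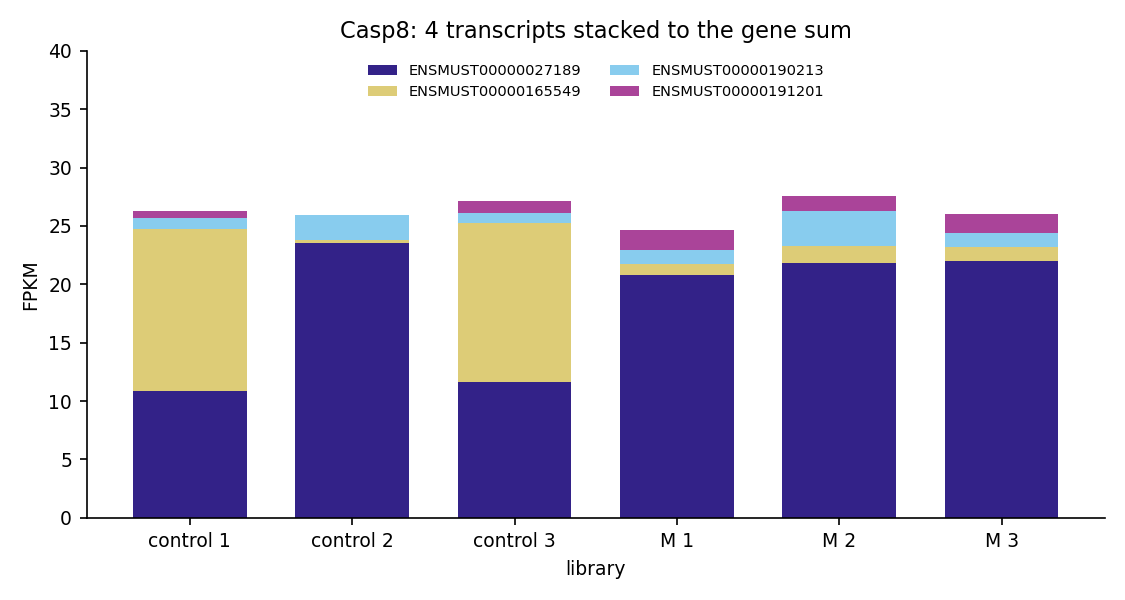
FPKM of the 4 Casp8 transcripts stacked for each of the 6 libraries. The total stays between 24.6 and 27.6 FPKM, while ENSMUST00000165549 holds about as much as ENSMUST00000027189 in control 1 and 3 and little in control 2 and the M libraries.

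Apaf1 and Casp9, the scaffold and the protease of the apoptosome, gave no call. Casp9 was at 5.56, 6.36 and 7.19 FPKM in control and 5.90, 11.9 and 6.81 in M. A single library, M 2, stood above all others and the other 2 M values lay within the control range. The log2 fold change was 0.27 ± 0.249 SE (95% interval -0.35 to 0.89, limma adjusted p = 0.423), and without M 2 it was -3.97e-04 (0.998). Of its 3 transcripts, ENSMUST00000030747 and ENSMUST00000153094 had their highest values in M 2, at 8.45 and 3.18 FPKM, while ENSMUST00000097805 had its lowest there, at 0.288. Apaf1 was at 20.0, 20.2 and 15.5 FPKM in control and 17.2, 17.3 and 15.9 in M. Control 3 was the lowest of all 6 libraries and the other controls were the highest, so the groups overlapped. The log2 fold change was -0.13 ± 0.0995 SE (95% interval -0.36 to 0.11, adjusted p = 0.335). Without control 3 Apaf1 was called lower, at -0.25 (adjusted p = 0.0140). Its second transcript, ENSMUST00000161987, had means of 4.61 ± 0.358 and 3.20 ± 0.861 FPKM and lay below control in every M library; groups did not overlap in 36.3% of all tested transcripts. It was not called (adjusted p = 0.156), but without M 2 it was (0.0477). A minor transcript, ENSMUST00000159110, lay above control in every M library, at 0.371 ± 0.240 and 1.20 ± 0.888 FPKM, and was not called either (log2 fold change 0.63, adjusted p = 0.269).

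Casp6, an executioner caspase that cuts nuclear lamins, has 1 transcript in the table. It was at 3.80, 5.53 and 6.12 FPKM in control and 5.62, 4.62 and 4.63 in M, with the M libraries inside the control range. The log2 fold change was -0.03 ± 0.151 SE (95% interval -0.39 to 0.33, limma adjusted p = 0.886).

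In the necroptosis branch, Ripk3 was called. This kinase phosphorylates MLKL. It was at 29.0, 28.2 and 27.6 FPKM in control and 30.3, 32.9 and 31.5 in M, so that the groups did not overlap. The rise was small, 1.12-fold, with means of 28.3 ± 0.695 and 31.6 ± 1.30 FPKM (log2 fold change 0.15 ± 0.0442 SE, 95% interval 0.05 to 0.26, limma adjusted p = 0.0240). A larger absolute change was seen in 52.1% of all tested genes. Leaving out control 2 ended the call (adjusted p = 0.0552), as did leaving out control 3 (0.0751), M 2 (0.0876) or M 3 (0.0598). ENSMUST00000022830 made up 90.5% to 95.4% of Ripk3 FPKM in each library and was also called among transcripts, at 0.19 ± 0.0376 SE (adjusted p = 0.0277). That transcript call was lost without any 1 of 5 libraries, M 1 being the exception, with adjusted p from 0.0595 to 0.0879, under the replicate block (0.123) and without trend and robust moderation (0.0907).

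Ripk1, the kinase and scaffold that binds RIPK3, was at 22.4, 21.1 and 23.8 FPKM in control and 21.8, 21.6 and 19.8 in M. The groups overlapped, and the log2 fold change was -0.09 ± 0.0594 SE (95% interval -0.22 to 0.05, limma adjusted p = 0.277). Mlkl, whose protein breaks the membrane, was at 5.51, 4.41 and 5.48 FPKM in control and 6.14, 5.88 and 5.80 in M. All M values were above all control values, and groups did not overlap in 55.7% of all tested genes. Mlkl was not called (log2 fold change 0.18 ± 0.0836 SE, 95% interval -0.01 to 0.38, adjusted p = 0.115). Its main transcript, ENSMUST00000120432, held 89.8% to 97.5% of Mlkl FPKM.

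**Figure D3:**
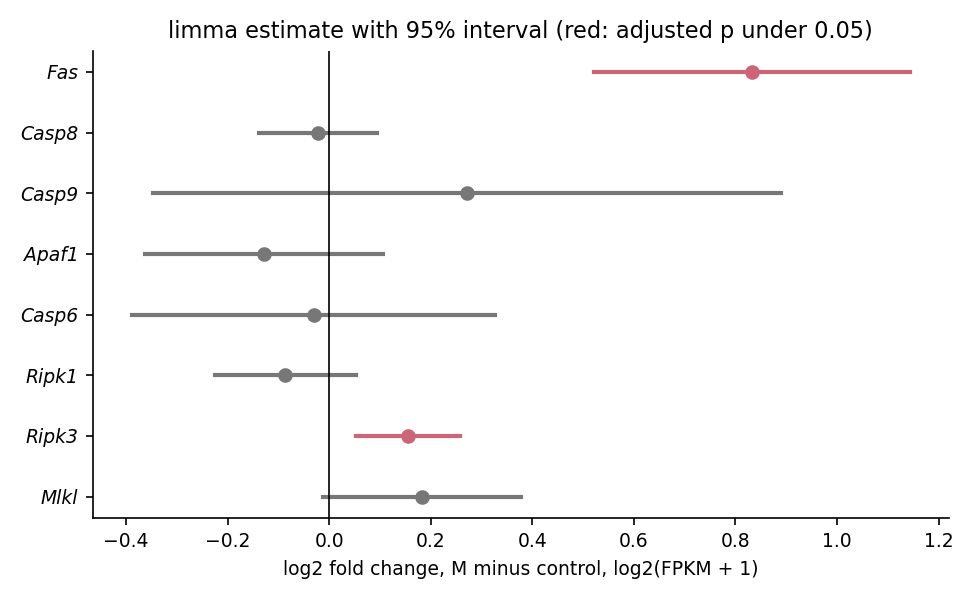
limma log2 fold change of each gene, M minus control on the log2(FPKM + 1) scale, with its 95% interval; red marks an adjusted p under 0.05. The interval of Fas starts at 0.52 and that of Ripk3 at 0.05, and those of the other 6 include 0.

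Ratios between partner proteins' genes were taken per library, a set of 4 chosen after the values were seen. Casp8 over Cflar, the gene of the caspase-8-like inhibitor FLIP, was 0.859, 0.830 and 0.825 in control and 0.611, 0.622 and 0.579 in M. Fas over Fadd was 0.536, 0.584 and 0.376 in control and 1.14, 1.43 and 1.23 in M. Ripk3 over Ripk1 was 1.29, 1.34 and 1.16 in control and 1.39, 1.52 and 1.59 in M. In these 3 the groups did not overlap, and the exact two-sided permutation test of the log2 ratio gave p = 0.1 for each. That is the smallest p that 3 libraries against 3 allow. Any ratio without overlap gives it, and these were chosen after the values were seen, so it adds no support. Ripk3 over Mlkl overlapped between groups (exact permutation p = 0.8).

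Genes of death ligands and of receptors other than Fas went up where they were called. Of 10 listed genes 7 were tested, with 4 higher (57.1%) and 0 lower and a median log2 fold change of 0.29. The shares among all tested genes were 21.2% higher and 21.9% lower. The ligand gene of Fas, Fasl, was listed at 0 in all 6 libraries, and the TRAIL gene Tnfsf10 was at 0.0733 ± 0.0318 and 0.0149 ± 0.0135 FPKM, below the filter. Tnf, the ligand whose receptor recruits RIPK1, rose from 20.3 ± 1.11 to 46.3 ± 2.24 FPKM (log2 fold change 1.15, limma adjusted p = 5.09e-06). Its receptors Tnfrsf1a (0.29, 3.72e-04) and Tnfrsf1b (0.52, 2.15e-04) and the TWEAK receptor Tnfrsf12a (0.43, 0.0145) rose too; the last was not called without M 2 (0.0518).

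Among 9 tested adaptors and regulators of the death complexes, 2 were higher (22.2%) and 1 lower (11.1%), with a median of 4.36e-04. This compares with 21.2% higher and 21.9% lower among all tested genes. Cflar rose from 31.6 ± 1.17 to 43.2 ± 2.54 FPKM (log2 fold change 0.44, limma adjusted p = 4.26e-04), and Traf1, a TNF receptor-associated factor, rose by 0.83 on the log2 scale (7.39e-05), though its most abundant transcript alone gave 0.47 (0.153). Fadd, the adaptor between Fas and caspase-8, fell from 5.60 ± 0.256 to 4.51 ± 0.159 FPKM (-0.26, 0.0103).

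The other caspases and proteins that caspases cut were lower in 7 of the 9 tested (77.8%) and higher in 0, with a median of -0.27. Among all tested genes 21.9% were lower and 21.2% higher. Without the filter 1 of the 10 listed was called higher; Xkr8, a phospholipid scramblase that caspases activate and the only one below the filter, was at 0.785 ± 0.137 and 1.11 ± 0.0366 FPKM with groups that did not overlap. Among the lower genes was Casp2 (log2 fold change -0.47, limma adjusted p = 1.95e-04), a caspase of the DNA damage and mitotic stress response. The nuclease Dffb (-0.31, 0.00736), its inhibitor Dffa (-0.19, 0.0321), the DNA repair enzyme Parp1 (-0.40, 0.00125) and Acin1 (-0.27, 0.00672), which are caspase substrates or act after them, were lower as well. The Acin1 call was lost with its most abundant transcript (-0.39, 0.153). The Dffa call was lost in 6 of 14 alternatives, among them without control 1 (0.102), control 2 (0.0747), M 2 (0.0641) or M 3 (0.0997).

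Of the 5 genes of factors released from mitochondria, limma called 0 at an adjusted p under 0.05, against 43.1% of all tested genes. At an unadjusted p under 0.05 there were 0 as well, and the median was 0.06. The most abundant were Htra2, a protease that antagonises caspase inhibitors, at 48.5 ± 2.53 and 51.0 ± 0.910 FPKM, and Cycs, which encodes cytochrome c, at 22.8 ± 1.79 and 22.2 ± 0.721. Of 15 tested BCL2 family genes, which control that release, 5 were higher (33.3%) and 3 lower (20%), against 21.2% and 21.9% of all tested genes. Their median was 0.12, and 1 was lower without control 3. The 3 lower in the full fit were Bad, Bbc3 (log2 fold change -0.24, limma adjusted p = 0.0149) and Bak1 (-0.16, 0.0191), like Bax a pore-former. The pore-former Bax (log2 fold change 0.44, limma adjusted p = 1.80e-04), the caspase-8 substrate Bid (0.27, 0.00293) and the survival gene Bcl2 (0.26, 0.00709) rose, and Bad, a BH3-only gene, fell (-0.38, 0.00486; its most abundant transcript alone -0.48, 0.193).

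Inhibitors of apoptosis were called higher in 3 of 7 tested cases (42.9%) and lower in 1 (14.3%), with a median of 0.11. Over all tested genes the shares were 21.2% and 21.9%. Birc3, which encodes the RIPK1 ubiquitin ligase cIAP2, rose (log2 fold change 0.45, limma adjusted p = 9.71e-04). Birc5, which encodes survivin and also serves in mitosis, fell (-0.62, 3.55e-04). Xiap, the direct inhibitor of caspase-9, rose as a sum (0.29, 0.0129), but its most abundant transcript alone gave -0.26 (0.401). Naip2, an inflammasome sensor with near-identical copies that reads could be split among, did likewise (0.27, 0.00275; -0.28, 0.670).

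Of the 19 genes listed for ubiquitin and kinase control of RIPK1, 5 were higher and 5 lower, 26.3% each (median 0.04). This was near the 21.2% and 21.9% of all tested genes. The count higher was 3 without control 3, M 1 or M 3 and 2 with the most abundant transcript, and the count lower was 3 without M 2. The kinases Tbk1 (log2 fold change 0.30, limma adjusted p = 7.16e-04) and Ikbke (0.50, 8.04e-04), which phosphorylate RIPK1, were higher, although the most abundant Ikbke transcript alone gave -0.039 (0.939). All 3 subunits of the linear ubiquitin ligase were lower, Rnf31 by -0.27 (0.00235), Sharpin by -0.16 (0.0251) and Rbck1 by -0.14 (0.0189). All 3 kept their direction under all 14 alternatives, but Sharpin lost its call without control 1 (0.0672), control 2 (0.0730), M 2 (0.0677) or M 3 (0.0808), and Rbck1 without control 3 (0.0609) or M 2 (0.0748) and with its most abundant transcript (0.134). Mapkapk2, a kinase that restrains RIPK1, fell (-0.21, 0.00543), a call lost with quantile normalization (-0.070, 0.306). Cyld, a deubiquitinase of RIPK1, was at -0.09 (0.177).

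Of 14 tested necroptosis genes beyond Ripk1, Ripk3 and Mlkl, 3 were higher (21.4%) and 2 lower (14.3%), with a median of -0.02. Shares of 21.2% and 21.9% were found over all tested genes. Eif2ak2, the interferon-induced kinase PKR, fell from 22.1 ± 1.61 to 11.0 ± 0.389 FPKM (log2 fold change -0.94, limma adjusted p = 1.84e-05). The receptors Tlr4 (0.43, 1.55e-04) and Ifnar1 (0.24, 0.00220), both able to lead to RIPK3, rose. The third called, the phosphatase Ppm1b, was at 0.12 (0.0498) and lost its call in 11 of the 14 alternatives. Trim25, a ubiquitin ligase, fell by 0.18 (0.0491) with overlapping groups, a call lost in 8 of 14 alternatives, among them without control 1 (0.146), control 2 (0.123), M 1 (0.121) or M 3 (0.140). Zbp1, the nucleic acid sensor that binds RIPK3 directly, was at 1.88, 1.24 and 2.27 FPKM in control and 0.342, 0.0736 and 0.110 in M. Its mean was just below the filter, so it was not tested in the full fit. Its groups did not overlap, and the ratio of its M mean to its control mean was 0.0977.

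For comparison, inflammatory caspases and pyroptosis genes were called in 6 of 7 tested cases (85.7%), against 43.1% of all tested genes. Of the called, 5 were higher and 1 lower, and the list median was 0.37. The lower one was Gsdmd (log2 fold change -0.19, limma adjusted p = 0.00428), which encodes the pore-former gasdermin D, and without M 1 the count lower was 2. Ninj1, which ruptures the membrane late in lytic death, rose from 44.1 ± 2.54 to 180 ± 4.34 FPKM (log2 fold change 2.01, limma adjusted p = 1.50e-07), and the inflammatory caspase genes Casp1 (0.37, 2.25e-04) and Casp4 (0.75, 0.00425) and the sensor Nlrc4 (0.66, 2.27e-04) rose. Pycard, the gene of the inflammasome adaptor ASC, and Casp12 were near 0 and were not tested. Their means over all libraries were 0.0140 and 0.0161 FPKM. Gsdme, also listed, was not found. Over all these lists 92 of 103 genes were tested and 47 were called, 27 higher and 20 lower. This share, 51.1%, is to be read against the 43.1% of all tested genes.

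**Figure D4:**
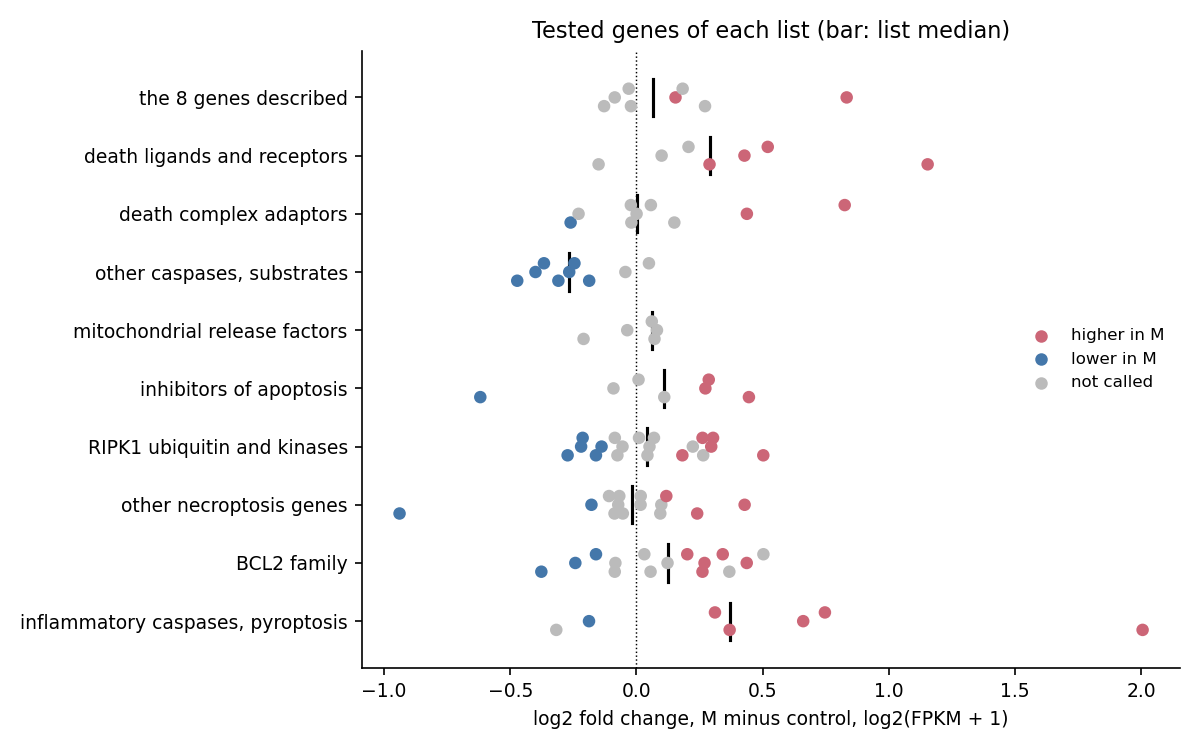
limma log2 fold change, M minus control on the log2(FPKM + 1) scale, of each tested gene by list; colours give the call at an adjusted p under 0.05 and bars the list median. The 8 genes described have a median of 0.07, the other caspases and substrates -0.27, and the inflammatory caspases and pyroptosis genes 0.37.

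The genes whose levels most resembled each of these over the 6 libraries were sought by Pearson's r on the log2(FPKM + 1) scale among 9938 named genes, as a description in which all points share the 6 libraries. For Fas they were the clock-related gene Ciart (r = 0.996), Ube4a (0.994) and Esco1 (0.994), and 10.6% of the genes had an r above 0.9. For Ripk3 they were Sbf2 (0.993), Depdc7 (0.992) and Gng12 (0.991), with 7.30% above 0.9. For Mlkl, Opa1 (0.996), Atox1 (0.990) and Zcchc4 (0.984) were nearest, with 1.58% above 0.9. For Casp8, whose sum varied little, Usp25 (0.967) and Exosc1 (0.958) were among the 3 nearest, and 0.131% of the genes were above 0.9. The nearest were Naa15 for Casp9 (0.990), Svip for Apaf1 (0.991), Paip2 for Casp6 (0.975) and Bod1 for Ripk1 (0.993), each with less than 1% of genes above 0.9.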

How the data were processed

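RNA of 6 mouse macrophage libraries, 3 control and 3 M, was sequenced. The authors deposited FPKM per transcript, per the file headers, and the submitters' processing notes name build mm9. Aligner, quantifier and annotation release: not given in the sources used here. Levels are mean FPKM ± SD, n = 3. Depth in reads is unknown; relative depth came from the commonest ratio, at a tolerance of 0.1%, among values below 0.1 FPKM.

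Transcripts were summed per symbol, symbols with a mean of at least 1 FPKM were kept, and log2(FPKM + 1) was fitted with limma 3.58.1 in R 4.3.3 (eBayes with trend and robust settings, without covariates). Single transcripts with a mean of at least 0.5 FPKM were fitted likewise. The script was tested on simulated data. The replicate numbers were not taken as pairs.

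The 8 genes and all lists were chosen with earlier results of these data known. Named beside them were up to 4 called genes per list by adjusted p (where none, the 2 most abundant) and the 3 genes most alike by r. A few genes under this rule are not reported here. Genes named outside it were chosen after their values were seen. The lncRNA table holds none of the 8 genes and was not used. Alternatives were a pseudocount of 0.1 or 5, no filter, median-of-ratios scaling, quantile normalization, the most abundant transcript, eBayes without trend and robust, the replicate block, and leaving out each library.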

Additional observations from a re-analysis of the deposited data

How the results depend on the processing

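Fas was called higher under all 14 alternatives (log2 fold change 0.46 with a pseudocount of 5 to 1.02 with 0.1), and Ripk3 kept its direction under all 14. The count of the 8 genes called was 1 to 2 when a library was left out, with 1 to 2 higher and 0 to 1 lower, and 2 in the other alternatives. Leaving out 1 library gave log2 fold changes of 0.13 to 0.18 for Ripk3, -0.25 to -0.065 for Apaf1, 0.095 (without control 2) to 0.23 for Mlkl, -0.13 (without control 2) to -0.043 (without control 3) for Ripk1, -0.061 to 0.017 for Casp8, -3.97e-04 to 0.45 for Casp9 and -0.20 to 0.085 for Casp6 (and its transcript). The most abundant transcript of Casp8 gave 0.55 (adjusted p = 0.212). The count of transcripts called for the 8 genes, 2 in the full fit, was 1 without trend and robust moderation, 0 under the replicate block and 0 to 2 when a library was left out. With the replicate number as a block, 4300 of all genes were called against 4480, and no call among the 8 genes changed; the deviations of same-numbered libraries from their group means had r = 0.066, 0.0052 and -0.035, and not every library correlated best with its own number. Leaving out a library turned the sign of Cycs (-0.082 to 0.023) and of uncalled transcripts of Casp8 (ENSMUST00000190213, -0.060 to 0.46), Casp9 (ENSMUST00000030747, -0.069 to 0.39), Ripk1 (ENSMUST00000167374, -0.023 to 0.095) and Ripk3 (ENSMUST00000168716, -0.22 to 0.00748). The most abundant transcript alone reversed Xiap (-0.26), Naip2 (-0.28) and Ikbke (-0.039). The causes were not tested. With 3 libraries a group and no read counts, changes of the size of Ripk3's are at the limit of what these data resolve.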
